A study of Mus musculus with 13 samples.

Results

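Loss of Tifab alone was compared with the wild type in 6 of the 13 RNA-seq libraries of the series, 3 labelled TIFAB_KO (TIFAB-/-;miR146a+/+) and 3 labelled WT (TIFAB+/+;miR146a+/+). Genes were examined when their log2 CPM averaged 0 or more across these 6 libraries, which held for 11813 of 24062 rows. CPM is a read count scaled to a library of 1 M reads, and log2 CPM is the scale of all values below unless another is named. The remaining libraries, 3 miR-146a_KO (TIFAB+/+;miR146a-/-) and 4 dKO (TIFAB-/-;miR146a-/-), give a second comparison that differs by Tifab and shares no library with the first.

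The cells were LK cells, bone marrow cells without lineage markers or Sca-1 but with c-kit, a fraction rich in committed granulocyte-monocyte, erythroid and megakaryocyte progenitors. They came from Boy/J mice that received marrow of 1 genotype after 7.0 Gy and, 3 h later, 4.75 Gy of irradiation, so all groups share irradiation and transplantation, and how many host cells remained is not given. The labels give an age of 2 to 5 months. No source names the part of Tifab that is removed. The protocol states 3 mice per group, but no label ties a library to its own mouse and dKO has 4 libraries, so p-values measure the spread between libraries, which may be technical.

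Tifab encodes a protein with a forkhead-associated domain, related to the adaptor TIFA. TIFA gathers the ubiquitin ligase TRAF6, which signals through TAK1 to NF-kB and the MAP kinases, and TIFAB is known as an inhibitor of this route. The human gene lies in the part of chromosome 5q that is lost in del(5q) myelodysplastic syndrome, a marrow disease with poor blood cell output. TIFAB has also been tied to the deubiquitinase USP15 and, through it, to p53.

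The 6 libraries held 8.38 to 12.8 M reads and a read for 14460 to 15874 genes. The pre-ribosomal transcript Rn45s took 4.2 to 9.09% of reads in WT and 6.57 to 10.7% in TIFAB_KO. TIFAB_KO replicate 3 was the library least like the others of the series, with a median correlation of 0.948 across genes against 0.95 to 0.974 in the rest, and its 10 largest genes took 19.8% of its reads. The markers of the sort were present in each of the 6 libraries, with Kit at 270 to 459 CPM, Cd34 at 176 to 274 and Myb at 934 to 1190. Markers the sort removes were near 0, with Cd3e below 1 CPM, Ms4a1 at 0 to 0.308 and Ly6a, the Sca-1 gene, at 0.597 to 3.

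Few single genes passed the test. With limma and Benjamini-Hochberg adjustment over all genes, 2 of 11813 genes (0.0169%) passed in TIFAB_KO against WT, and both fell. With these 2 included, 595 genes had an unadjusted p under 0.05, 5.04% of those tested, with 350 of the 595 above 0 and 245 below. The median log2 fold change of all genes was -0.01, and 47.7% of genes lay above 0. For 615 genes (5.21%) all 3 TIFAB_KO libraries lay above all 3 WT libraries, and for 388 (3.28%) all 3 lay below. These shares are the background for every count below of non-overlapping genes in TIFAB_KO against WT over all 6 libraries.

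The gene targeted in these mice fell. Tifab (chr13:56173704-56178885, minus strand, mm10) had 5.34, 5.63 and 5.31 in WT replicates 1 to 3 and 3.17, 3.56 and 3.69 in TIFAB_KO replicates 1 to 3. Both groups are far apart, yet 75 to 164 reads remained in each TIFAB_KO library, where WT libraries had 386 to 485. The log2 fold change was -1.95 ± 0.31 (SE, n = 3 and 3, limma adjusted p = 0.0388). Between dKO and miR-146a_KO the same gene fell by 3.61 ± 0.29 (limma adjusted p = 2.99e-06, n = 4 and 3). The difference between both effects, 1.66 ± 0.43, did not pass (limma adjusted p = 0.604).

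H2afy was the second gene that fell. It encodes macroH2A1, a histone variant of repressed chromatin, and lies 37.3 kb from Tifab on the same strand (chr13:56073619-56136361). It had 9.27, 9.48 and 9.59 in WT and 8.72, 8.18 and 8.25 in TIFAB_KO. The lowest WT library stood 0.55 above the highest TIFAB_KO library, and the fold change was -1.06 ± 0.16 (limma adjusted p = 0.0388, n = 3 and 3). In the libraries that lack miR-146a it fell by nearly the same amount, 1.11 ± 0.15 (limma adjusted p = 0.00375, n = 4 and 3), from 9.58, 9.6 and 9.37 to 8.55, 8.57, 8.34 and 8.18. The difference between both effects was 0.04 ± 0.23. Neither Tifab nor H2afy passed in TIFAB_KO against WT once replicate 2 or 3 of either group was left out. Nor did either pass without the filter on low values, without the variance trend, without any 1 miR-146a_KO library or without dKO replicate 1. Tifab did not pass without WT replicate 1 (limma adjusted p = 0.0745). H2afy did not when only the groups compared were fitted (limma adjusted p = 0.108). The fold changes of both genes kept their sign in all these fits.

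**Figure D1:**
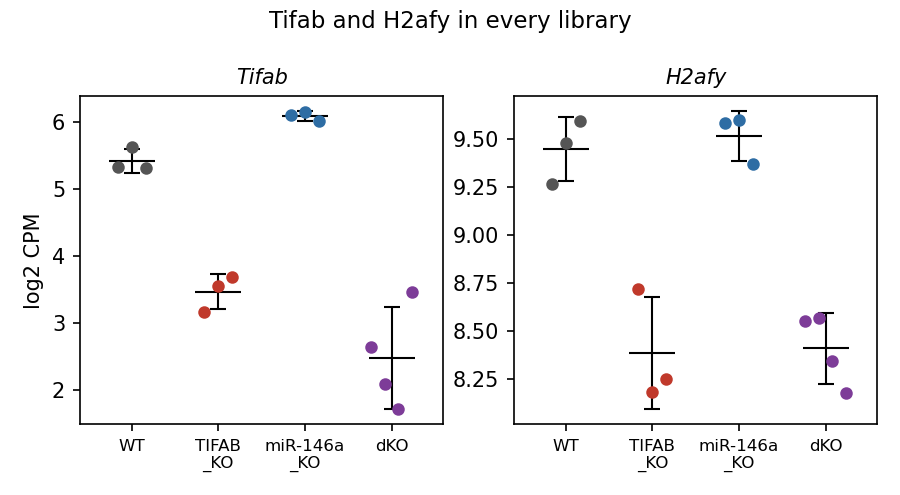
Log2 CPM of Tifab and H2afy in each library (points) of the 4 groups, with the mean and SD of each group in black. TIFAB_KO and dKO libraries lie below WT and miR-146a_KO libraries for both genes.

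The other tested genes around Tifab did not pass. On one side Txndc15 had 0.11 ± 0.26 and Pcbd2, a pterin dehydratase and transcription cofactor, 0.15 ± 0.26 (log2 fold change ± SE). On the other side Tgfbi, which encodes a secreted matrix protein, had -0.82 ± 0.41, Smad5, a BMP signal transducer, 0.05 ± 0.15 and Klhl3 0.72 ± 0.47. Tgfbi had -1.46 ± 0.38 between dKO and miR-146a_KO. Its limma adjusted p was 0.999 and 1 in these comparisons, so only H2afy shared the call with Tifab among the 3 tested and annotated genes on each side, of which Klhl3 lies 1821.3 kb away.

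The route that TIFAB is known to act on was close to WT at the RNA level. Of 16 genes of TIFA and TRAF6 signalling 7 had a log2 fold change above 0 and 9 below, with a range of -0.2 to 0.6. Their median was -0.08, and 0.01, -0.12 and 0.04 without TIFAB_KO replicates 1, 2 and 3. Tifa, the adaptor, had 4.73, 4.96 and 4.73 in WT and 5.01, 5.06 and 5.08 in TIFAB_KO, so the groups did not overlap, but the difference was 0.24 ± 0.22 (limma adjusted p = 0.999). Traf6, the ligase, had -0.16 ± 0.2, Traf2 0.11 ± 0.24, and Usp15 -0.19 ± 0.16. Rnf31, the catalytic subunit of the linear ubiquitin ligase, had -0.16 ± 0.18, with all 3 TIFAB_KO libraries below WT. None of these passed.

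Among 21 tested genes of the Toll-like receptors and their Myddosome adaptor complex, 14 lay above 0 (median 0.17, or 0.0952 to 0.256 with 1 library left out), and 2 had all 3 TIFAB_KO libraries above WT. These were Myd88, the central adaptor (3.72, 3.52 and 3.82 in WT, 4.43, 4.16 and 4.23 in TIFAB_KO, 0.58 ± 0.2), and Tlr1, a receptor for bacterial lipopeptides (-0.34, 0.99 and 0.57 against 1.91, 1.97 and 1.59, 1.42 ± 0.54). Irak1, the kinase of the complex, had 0.08 ± 0.13. The receptors Tlr4 and Tlr2 had 0.77 ± 0.39 and -0.28 ± 0.29. The miR-146a_KO libraries, which keep Tifab, also lay above all WT libraries for Myd88 (4.05, 4.21 and 4.11) and Tlr1 (2.04, 1.38 and 1.7). They did so for Tlr4 and Irak1 too, and for Tlr2 they overlapped WT. Between dKO and miR-146a_KO 5 of the 21 lay above 0, with a median of -0.16.

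Genes of granulocyte precursors formed the largest group with a common sign. Primary granules are the first granules a promyelocyte makes and hold myeloperoxidase and the neutrophil serine proteases. All 15 tested primary granule and promyelocyte genes had a positive log2 fold change, from 0.21 to 1.21 with a median of 0.64, and in 8 of the 15 all 3 TIFAB_KO libraries lay above all 3 WT libraries, against 5.21% of all genes. None of the 15 passed the adjusted threshold. Promoters of 4 of the non-overlapping genes are printed because each holds GAGGAAG, letters that ETS factors such as PU.1 bind. They are RefSeq sequences on GRCm38.p6, 5′ to 3′ along the gene, without bases of annotated exons, and capitals mark the motif.
Mpo (chr11:87793534-87793580, plus strand): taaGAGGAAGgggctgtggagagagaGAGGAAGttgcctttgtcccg
Elane (chr10:79886062-79886246, plus strand): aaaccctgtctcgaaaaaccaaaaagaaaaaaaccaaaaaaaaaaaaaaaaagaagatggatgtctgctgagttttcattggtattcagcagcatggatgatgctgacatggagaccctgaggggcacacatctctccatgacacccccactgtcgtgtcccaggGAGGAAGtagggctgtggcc
Prtn3 (chr10:79879417-79879613, plus strand): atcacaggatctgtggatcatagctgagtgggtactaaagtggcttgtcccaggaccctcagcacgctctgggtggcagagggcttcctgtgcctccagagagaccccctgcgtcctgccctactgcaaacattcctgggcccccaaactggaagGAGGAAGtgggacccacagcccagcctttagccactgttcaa
Ctsg (chr14:56102575-56102824, minus strand): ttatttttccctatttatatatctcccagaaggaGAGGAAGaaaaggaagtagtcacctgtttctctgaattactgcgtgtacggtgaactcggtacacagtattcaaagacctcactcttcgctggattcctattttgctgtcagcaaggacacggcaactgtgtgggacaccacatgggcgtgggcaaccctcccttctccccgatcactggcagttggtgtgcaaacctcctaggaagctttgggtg
The motif lies 247 to 241 and 224 to 218 bases before the RefSeq start of Mpo, 85 to 79 before Elane, 95 to 89 before Prtn3 and 216 to 210 before Ctsg. From 250 bases before to 50 after the start, on both strands, 6 of the 13 genes of the list with a promoter sequence held GAGGAAG, and so did 15.4% of all 27025 genes in the table. No other motif searched overlapped these matches. The RUNX motif, also searched, was in 7 of the same 13 genes and in 18.9% of all genes. A match describes the sequence and is no sign that a factor binds there.

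Mpo, which encodes myeloperoxidase (chr11:87793581-87804413), had 13.46, 13.12 and 12.71 in WT and 13.77, 13.83 and 13.62 in TIFAB_KO. The TIFAB_KO libraries were close to one another and the WT libraries spread over 0.75, and the fold change was 0.64 ± 0.23 (limma adjusted p = 0.765). Elane, the neutrophil elastase gene (chr10:79886247-79888215), had 9.79, 8.79 and 8.35 in WT and 9.81, 10.3 and 10.1 in TIFAB_KO, a fold change of 1.1 ± 0.31. Prtn3, which lies beside it and encodes proteinase 3, had 8.13, 7.56 and 7.01 against 8.21, 8.82 and 9 (1.11 ± 0.27, limma adjusted p = 0.432). In both genes WT replicate 1 came within 0.08 of TIFAB_KO replicate 1. Ctsg, the cathepsin G gene, had 9.46, 8.82 and 8.53 against 9.46, 9.85 and 10.12 (0.88 ± 0.24), and there those same libraries were level to 2 decimals.

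Ms4a3, a membrane protein gene used to trace granulocyte-monocyte progenitors, had 5.94, 5.43 and 4.98 in WT and 6.04, 6.95 and 7 in TIFAB_KO (1.21 ± 0.3, limma adjusted p = 0.432). Gfi1, a repressor that neutrophil development requires, had 3.64, 3.54 and 2.54 in WT and 4.5, 4.72 and 4.43 in TIFAB_KO. Here the groups were 0.79 apart at their closest, and the fold change was 1.31 ± 0.32 (limma adjusted p = 0.432). Cebpa, which starts the granulocyte-monocyte programme, had 4.79, 4.6 and 4.09 against 4.92, 4.95 and 4.93 (0.44 ± 0.26), and Spi1, the PU.1 gene, 0.16 ± 0.24. Nfia, a factor that favours the erythroid over the granulocytic fate, had 6.74, 6.82 and 7.15 against 6.64, 6.27 and 5.92 (-0.63 ± 0.2). Over all 11 granulocyte-monocyte fate factors 8 lay above 0, with a median of 0.16 that became 0.3 once WT replicate 1 was left out.

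Receptors through which myeloid cytokines act had the same sign. Of 12 tested 11 lay above 0 (median 0.43), and in 5 all 3 TIFAB_KO libraries lay above WT. Csf3r, the G-CSF receptor, had 6.58, 6.67 and 5.9 in WT and 6.92, 7.35 and 6.81 in TIFAB_KO (0.64 ± 0.22). Csf2rb, the shared receptor chain for GM-CSF, IL-3 and IL-5, had 6.89, 6.78 and 5.84 against 7.13, 7.26 and 6.99 (0.63 ± 0.28). WT replicate 3 was the low library in both. Tnfrsf1a, a TNF receptor gene, had 4.6, 4.61 and 4.09 against 4.8, 5.18 and 5.15 (0.61 ± 0.2), and Il6st, the signalling chain of the IL-6 family, 0.33 ± 0.21.

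The extent of the granule pattern differed between libraries of 1 group. Averaged over the 15 primary granule genes and centred on the 6 libraries, WT replicates 1 to 3 lay at 0.11, -0.41 and -0.76, and TIFAB_KO replicates 1 to 3 at -0.02, 0.6 and 0.48. TIFAB_KO replicate 1 was thus within the WT range on this average. The median fold change of the list was 0.44 once the lowest WT library was left out and 0.82 once the highest was. All 15 genes stayed above 0 without each of the 6 libraries in turn.

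**Figure D2:**
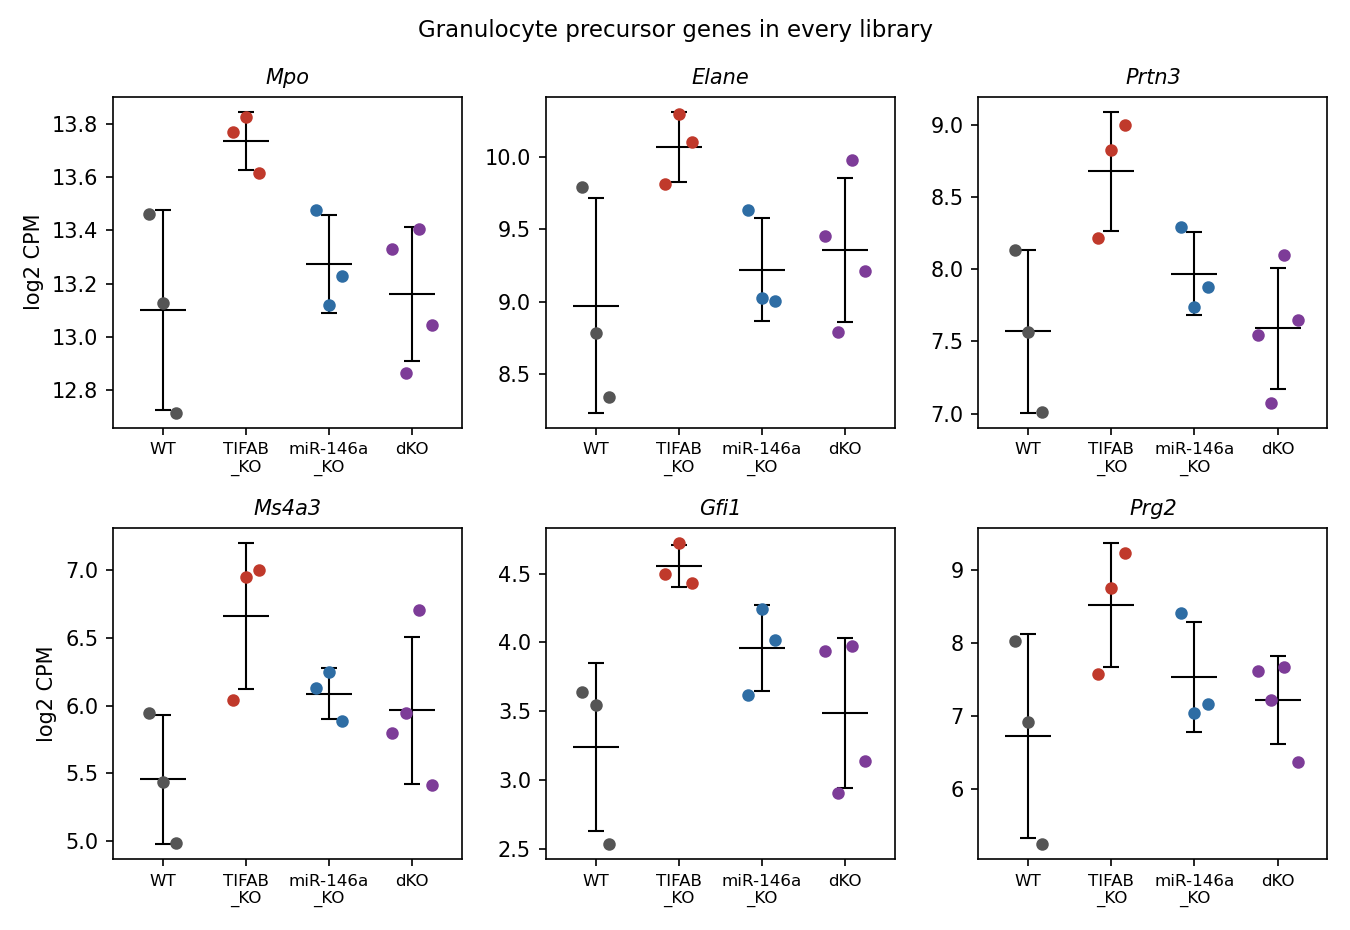
Log2 CPM of 6 granulocyte precursor genes in each library (points) of the 4 groups, with the mean and SD of each group in black. For Mpo, Elane, Prtn3, Ms4a3 and Gfi1 the 3 TIFAB_KO libraries lie above the 3 WT libraries, and Prg2 overlaps.

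Eosinophil genes were higher in TIFAB_KO on average, by amounts that varied between libraries. The 7 tested eosinophil genes lay above 0 (median 1.46), 2 did not overlap, and 1 of the 7 had a WT mean below 0 log2 CPM and so was tested only through its TIFAB_KO values. The median became 0.9 once WT replicate 3 was left out. Prg2, which encodes the major basic protein of eosinophil granules, had 8.03, 6.91 and 5.24 in WT and 7.57, 8.75 and 9.24 in TIFAB_KO (1.79 ± 0.54, limma adjusted p = 0.622), so TIFAB_KO replicate 1 lay inside the WT range. Epx, the eosinophil peroxidase gene, had 5.48, 5.12 and 3.72 against 5.6, 6.5 and 6.5 (1.42 ± 0.53). Ear1, an eosinophil ribonuclease gene that shares sequence with other Ear genes, had 3.1, 2.76 and 1.78 against 3.37, 4.53 and 4.11 (1.46 ± 0.65), and how reads were divided among these copies is not given. Prg3 had 1.21 ± 0.71. Summed over 9 genes of the list, WT replicates 1 to 3 had 325, 169 and 58 CPM and TIFAB_KO replicates 257, 567 and 742.

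Markers of more mature or other marrow cells moved with TIFAB_KO replicates 2 and 3. The 15 marrow macrophage genes summed to 52.6 to 64 CPM in WT, 57.5 in TIFAB_KO replicate 1 and 133 and 157 in replicates 2 and 3. C1qb, a complement gene of macrophages, had -0.19, -1.13 and -0.58 in WT and -0.9, 2.16 and 3.04 in TIFAB_KO. Vcam1, an adhesion molecule of marrow macrophages and stroma, had 4.13, 1.97 and 2.79 against 3.48, 5.63 and 5.39, and Mrc1 and Axl, scavenger and efferocytosis receptors, had 1.68 ± 0.75 and 1.61 ± 0.51 without overlap. C1qa was at 0 reads in WT replicates 2 and 3 and in TIFAB_KO replicate 1. Only 8 of the 15 genes were tested, 2 of them through their TIFAB_KO values alone, so the list median of 1.48 is not a measure of the whole list. It became 0.92 once TIFAB_KO replicate 3 was left out, 2.2 once TIFAB_KO replicate 1 was, and -0.05 over members averaging 3 log2 CPM or more.

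The 17 late granule and neutrophil genes summed to 290, 181 and 163 CPM in WT and 163, 439 and 376 in TIFAB_KO replicates 1 to 3. Only 11 of them were tested, 1 through its TIFAB_KO values alone, and none was without overlap. Their median of 0.7 became 0.19 once TIFAB_KO replicate 2 was left out and 1.37 once TIFAB_KO replicate 1 was. Camp, Ngp and Lcn2, secondary granule genes, had 1.2 ± 1.08, 0.7 ± 1.39 and 1.32 ± 0.68. Ngp was lowest in TIFAB_KO replicate 1 (-0.9) and highest in replicate 2 (5.23). Ltf, the defining secondary granule gene, was at 0 reads in TIFAB_KO replicate 1 and at most 3.8 CPM elsewhere among the 6. The part of such cells in the granule and eosinophil values was not tested, and in bulk RNA more cells of a type cannot be told apart from more RNA per cell.

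Mast cell, basophil and monocyte genes were less uniform. Of 10 mast cell and basophil genes 8 lay above 0 (median 0.47, and 0.16 without WT replicate 3), with Mcpt8, a basophil protease, at 0.6 ± 0.44 and Fcer1a, the IgE receptor alpha chain, at 1.13 ± 0.47 without overlap, and Cpa3, the mast cell carboxypeptidase, at -0.14 ± 0.23. Gzmb, a granule protease of several cell types, had 1.01 ± 0.45 without overlap. Of 15 monocyte and dendritic cell genes 14 lay above 0 with a median of 0.19, which was 0.12 once WT replicate 3 was left out and 0.36 once WT replicate 2 was. F13a1, a monocyte transglutaminase, had 0.48 ± 0.2 without overlap, and the receptor gene Csf1r had 0.26 ± 0.22 and Ly86 0.13 ± 0.26.

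Erythroid genes lay on the other side. Of 19 tested erythroid membrane and transport genes 18 had a log2 fold change below 0 (median -0.34), and in 9 all 3 TIFAB_KO libraries lay below all 3 WT libraries, against 3.28% of all genes. None passed the adjusted threshold. Car1, a carbonic anhydrase gene of early erythroid cells (chr3:14766216-14808368), had 10.54, 10.43 and 10.79 in WT and 10, 9.58 and 9.94 in TIFAB_KO. The groups were 0.43 apart at their closest, and the fold change was -0.74 ± 0.21 (limma adjusted p = 0.582). Ank1, the red cell ankyrin gene, had 5.63, 5.7 and 6.05 against 5.15, 5.25 and 5.11 (-0.63 ± 0.16, limma adjusted p = 0.477).

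Ermap, an erythroblast membrane protein gene, had 7.85, 8.09 and 8.41 in WT and 7.46, 7.7 and 7.21 in TIFAB_KO (-0.66 ± 0.2). Not all erythroid genes followed: the erythropoietin receptor gene Epor had -0.09 ± 0.22 and the transferrin receptor gene Tfrc -0.18 ± 0.16, both overlapping. Pklr, the pyruvate kinase gene of red cells and liver, had 5.24, 5.57 and 5.98 against 4.8, 4.68 and 4.98 (-0.78 ± 0.2, limma adjusted p = 0.471). Of the fate factors, Gata1 had -0.47 ± 0.22 with overlap, and Gfi1b (-0.5 ± 0.22), Gata2 (-0.41 ± 0.19) and Bcl11a (-0.23 ± 0.14) had all 3 TIFAB_KO libraries below WT. Klf1 and Tal1 had -0.24 ± 0.23 and -0.06 ± 0.19.

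Here TIFAB_KO replicate 1 was on the side of its group. The list average, centred as above, was 0.1, 0.07 and 0.47 in WT and -0.14, -0.28 and -0.22 in TIFAB_KO, with WT replicate 3 the highest. The median of the list was -0.27 with WT replicate 3 left out and -0.54 with TIFAB_KO replicate 3 left out. Heme synthesis genes were near 0, with 7 of 12 below 0 and a median of -0.03 (-0.1 to 0.08 with 1 library left out), and Alas2 and Fech had WT and TIFAB_KO values that overlapped. The 9 globin genes of the file had at most 0.0782 CPM in total in these 6 libraries. Of 20 megakaryocyte and platelet genes 13 lay below 0 with a median of -0.06, or -0.15 to 0.07 with 1 library left out.

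**Figure D3:**
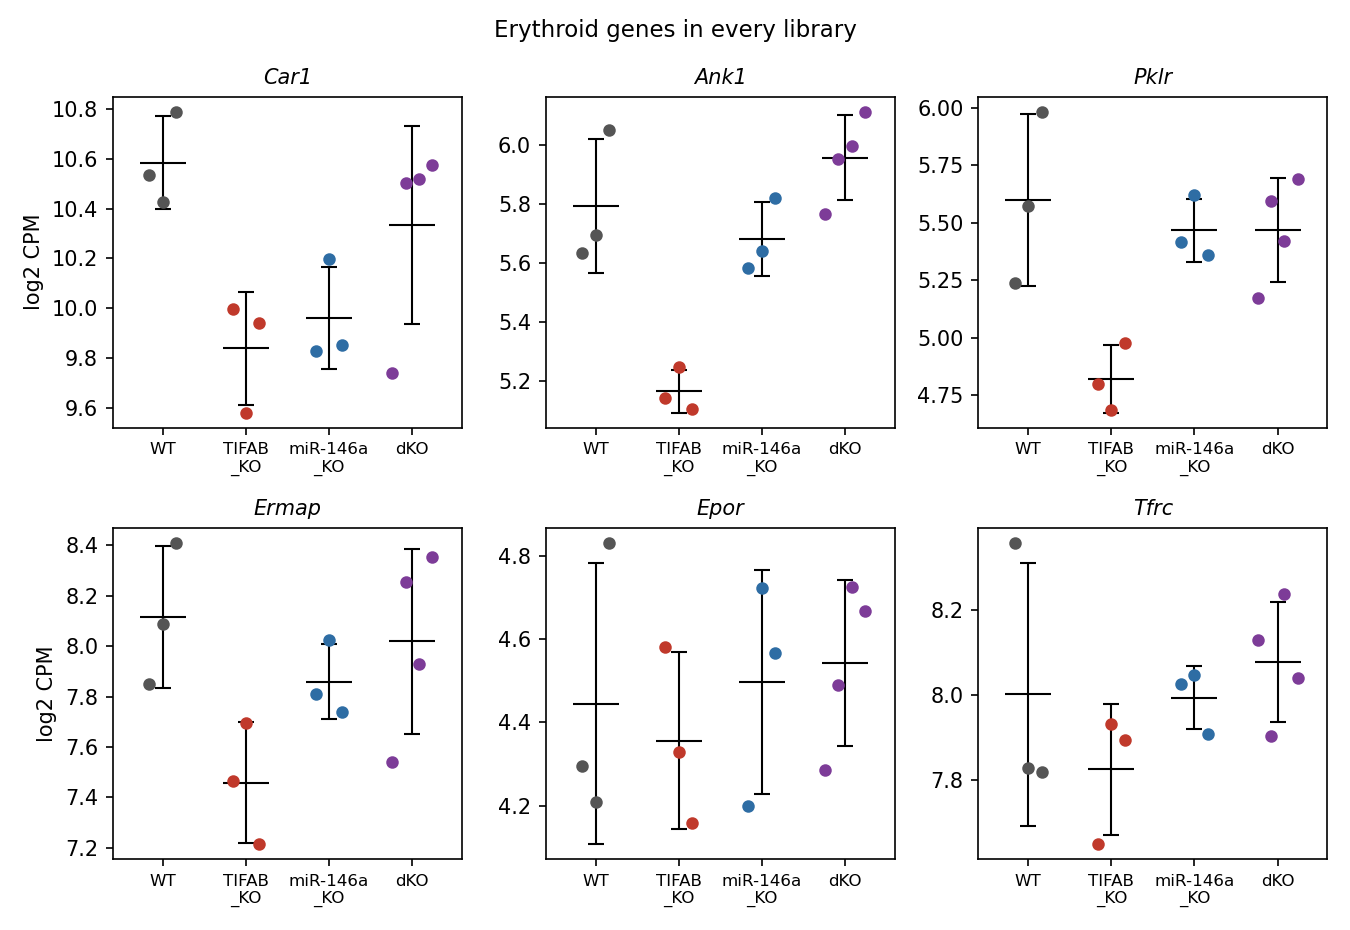
Log2 CPM of 6 erythroid genes in each library (points) of the 4 groups, with the mean and SD of each group in black. For Car1, Ank1, Pklr and Ermap the 3 TIFAB_KO libraries lie below the 3 WT libraries, and Epor and Tfrc overlap.

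Immediate early genes had the most negative list medians, but not in every TIFAB_KO library. These genes are switched on within minutes of a stimulus, and many code for transcription factors of the AP-1, EGR, NR4A and KLF families. All 12 tested AP-1 and EGR genes lay below 0 (median -0.7), and all 9 NR4A and KLF genes did (median -0.86). In 3 and 2 of them all 3 TIFAB_KO libraries lay below WT. Averaged over the AP-1 and EGR genes and centred on the 6 libraries, WT replicates 1 to 3 lay at 0.35, 0.61 and 0.28, TIFAB_KO replicate 1 at 0.32, and TIFAB_KO replicates 2 and 3 at -0.82 and -0.75. For the NR4A and KLF genes TIFAB_KO replicate 1 lay at 0.44, level with the highest WT library, and replicates 2 and 3 at -0.74 and -0.83.

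Jun, an AP-1 subunit, had 10.06, 10.27 and 10.3 in WT and 10.13, 9.06 and 9.64 in TIFAB_KO (-0.6 ± 0.23). Egr1, a zinc finger factor whose human gene also lies on 5q, had 10.06, 10.16 and 10.15 against 10.15, 9.1 and 9.3 (-0.61 ± 0.23). Fos differed, with the low value in TIFAB_KO replicate 1: it had 8.58, 8.34 and 8.31 against 7.85, 8.16 and 8.26 (-0.32 ± 0.17). Jund had 4.4, 4.39 and 4.2 against 3.97, 3.18 and 3.59 (-0.75 ± 0.25), and Egr2 3.71, 3.28 and 3.06 against 2.97, 1.55 and 1.95 (-1.19 ± 0.43), both without overlap. Nr4a1, an orphan nuclear receptor gene, had 6.5, 6.79 and 6.23 against 6.28, 4.52 and 4.88 (-1.28 ± 0.42). Klf6 had 10.93, 11.08 and 10.94 against 10.82, 9.23 and 9.72 (-1.06 ± 0.33), where replicate 1 stood 0.11 below the lowest WT library.

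Feedback genes of the same response followed. Of 14 tested 13 lay below 0 (median -0.43), and 5 did not overlap. They include Zfp36, which encodes an mRNA decay factor (9.23, 9.25 and 9.25 in WT, 9.09, 8.55 and 8.71 in TIFAB_KO, -0.46 ± 0.17), Ier2 (-0.48 ± 0.22), Ier5 (-0.54 ± 0.35), Rhob, a small GTPase gene (-0.37 ± 0.21), and Plk2, a polo-like kinase gene (-0.57 ± 0.43). Dusp1, a MAP kinase phosphatase gene, had 8.95, 9.5 and 10.3 against 9.89, 8.76 and 9.78 (-0.1 ± 0.36), and Mcl1, a survival factor gene, -0.41 ± 0.23.

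NF-kB feedback and response genes were lowest on average in the same pair of libraries. Centred as above, their average was 0.13, 0.47 and 0.18 in WT and 0.25, -0.5 and -0.54 in TIFAB_KO replicates 1 to 3. Of 22 tested NF-kB feedback and response genes 17 lay below 0 (median -0.42), and 3 did not overlap. The median was -0.66 once TIFAB_KO replicate 1 was left out and -0.28 once TIFAB_KO replicate 3 was. Promoter stretches of Nfkbia, Tnfaip3 and Cxcl2 are printed from the 8 genes of this list with the kappa B motif, in capitals, and of these 3 only Cxcl2 did not overlap. That of Plk2 holds the cyclic AMP response element TGACGTCA, in capitals. They are from the same table and were cut in the same way.
Nfkbia (chr12:55492648-55492797, minus strand): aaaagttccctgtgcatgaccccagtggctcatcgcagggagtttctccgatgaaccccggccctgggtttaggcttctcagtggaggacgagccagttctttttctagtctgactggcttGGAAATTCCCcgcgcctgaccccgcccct
Tnfaip3 (chr10:19015411-19015547, minus strand): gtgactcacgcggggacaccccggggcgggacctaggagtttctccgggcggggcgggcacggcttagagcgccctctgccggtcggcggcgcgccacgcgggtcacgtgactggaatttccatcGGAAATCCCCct
Cxcl2 (chr5:90903749-90903870, plus strand): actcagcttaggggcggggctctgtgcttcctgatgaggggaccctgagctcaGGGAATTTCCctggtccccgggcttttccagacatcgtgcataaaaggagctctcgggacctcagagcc
Plk2 (chr13:110394894-110395043, plus strand): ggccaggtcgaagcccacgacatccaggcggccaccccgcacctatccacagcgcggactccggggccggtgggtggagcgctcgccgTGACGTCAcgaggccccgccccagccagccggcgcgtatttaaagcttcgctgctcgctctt
The kappa B motif lies 29 to 20 bases before the start of Nfkbia, 12 to 3 before Tnfaip3 and 97 to 88 before Cxcl2, and TGACGTCA 62 to 55 before Plk2. In the full window, on both strands, 8 of 19 NF-kB feedback and response genes with a promoter sequence held the kappa B motif, and 6.55% of all genes did. TGACGTCA was found in 3 of 13 immediate early feedback genes and in 2.03% of all genes. None of the printed matches overlapped another motif searched. The kappa B motif was also found in 4 of 10 AP-1 and EGR genes with a promoter sequence.

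Tnfaip3, the A20 gene, which encodes an editing enzyme that removes ubiquitin from TRAF6 and other signal carriers, had 8.41, 9 and 8.87 in WT and 8.68, 6.57 and 6.69 in TIFAB_KO (-1.44 ± 0.41, limma adjusted p = 0.585). Nfkbia, the inhibitor of NF-kB that is itself an NF-kB target, had 5.77, 6.45 and 6.47 against 6.17, 5.04 and 4.83 (-0.88 ± 0.31). In both genes TIFAB_KO replicate 1 lay inside the WT range and the other 2 below it. Cxcl2, a neutrophil chemokine gene, had 2.88, 3 and 2.85 against 2.34, 1.36 and 1.51 (-1.17 ± 0.44) and did not overlap. Nfkbid had -0.89 ± 0.33, and Il1b (-0.84 ± 0.52) and Ptgs2 (-0.27 ± 0.21) lay below WT in all 3 libraries. The subunit genes Rela, Nfkb1 and Rel belong to a list of 8 with a median of -0.32 and 6 below 0, none without overlap. That median was -0.0525 once TIFAB_KO replicate 3 was left out and -0.511 once TIFAB_KO replicate 1 was.

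The fit was also run without each library, and that without TIFAB_KO replicate 1 is described because this library did not follow these lists, so its counts are conditioned on what was seen. In that fit 41 of 11813 genes (0.347%) passed, 33 lower and 8 higher, where 2 had passed with it. The lower ones included Tnfaip3 (-2.13 ± 0.3, limma adjusted p = 0.00915), Klf6 (-1.51 ± 0.3, limma adjusted p = 0.0358) and Txnip (-1.17 ± 0.2, limma adjusted p = 0.0174). The 8 higher ones were Vcam1, Prom1, Ms4a3, Dio2, Nucb2, Sdr42e1, Ccr2 and Prtn3, in order of p. Both remaining TIFAB_KO libraries lay below all WT libraries in 12 of 12 AP-1 and EGR genes, where 10% of all genes did. So they did in 14 of 22 NF-kB feedback and response genes. They lay above all WT libraries in 7 of 7 eosinophil genes, where 11.5% of all genes did. Of these 7 genes, 1 was tested only through its TIFAB_KO values. With TIFAB_KO replicate 2 left out instead, the counts were 3 of 12, 3 of 22 and 2 of 7. Of all genes 10.4% lay below and 8.37% above in that setting. With TIFAB_KO replicate 3 left out the counts were 3 of 12, 4 of 22 and 2 of 7. There 5.65% of all genes lay below and 13.3% above. Without TIFAB_KO replicate 2 or replicate 3 no gene passed with limma, and 690 and 534 had an unadjusted p under 0.05.

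**Figure D4:**
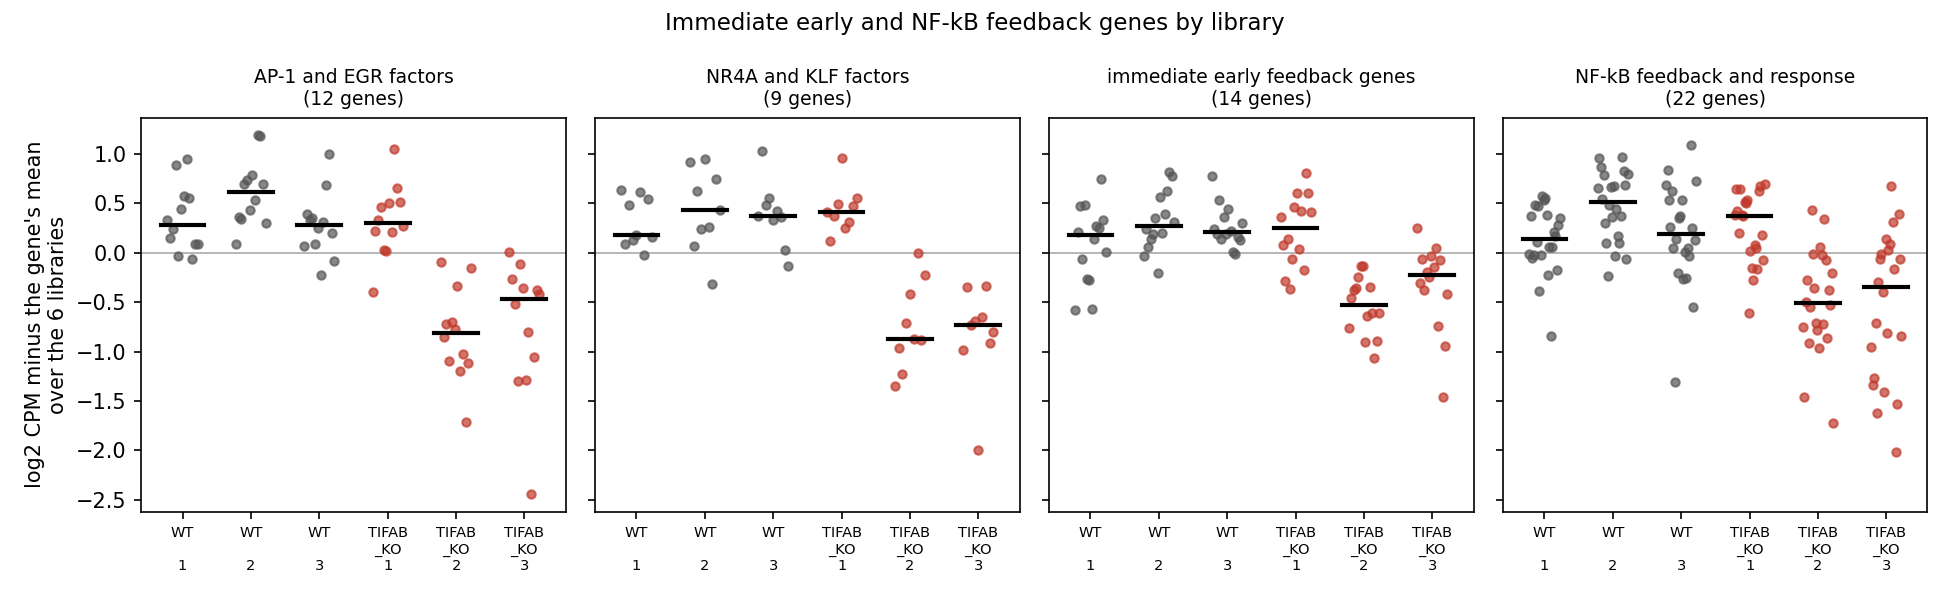
Each point is a gene in a library, as log2 CPM minus the mean of that gene over the 6 libraries, for 4 gene lists, and black bars are medians of a library. TIFAB_KO replicate 1 lies with the WT libraries, and TIFAB_KO replicates 2 and 3 lie lower.

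The p53 list had its lower values in the same libraries. Of 24 tested genes 22 lay below 0 (median -0.3), and 3 did not overlap. Once TIFAB_KO replicate 3 was left out 18 lay below 0 and the median was -0.17. Trp53 itself had 8.62, 8.16 and 7.92 in WT and 7.9, 8.03 and 7.89 in TIFAB_KO (-0.3 ± 0.2), so WT replicate 1 stood above the other 5. Cdkn1a, the p21 cell cycle inhibitor gene, had 7.33, 7.14 and 6.46 against 7.12, 5.28 and 5.9 (-0.88 ± 0.38), and Mdm2, which encodes the ligase that degrades p53, -0.33 ± 0.19. Ei24 and the death receptor gene Tnfrsf10b had -0.25 ± 0.22 and -0.44 ± 0.25, with all 3 TIFAB_KO libraries below WT, and Plk2 is counted in this list too. The list average was 0.24, 0.14 and 0.2 in WT and 0.11, -0.26 and -0.43 in TIFAB_KO. Of 18 Bcl2 family and caspase genes 12 lay below 0 (median -0.13, or -0.264 to -0.00861 with 1 library left out), with Bcl2 and Bcl2l1 at -0.1 ± 0.24 and 0.25 ± 0.31.

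Heat shock genes split the libraries in another way. Hspa1a, the inducible HSP70 gene, had 1.61, 8.65 and 7.84 in WT and 4.3, 7.16 and 6.96 in TIFAB_KO, and Hspa1b, its near-identical copy, 1.09, 8.2 and 7.27 against 3.82, 6.53 and 6.45. Replicate 1 of both groups was therefore low, and the group means differed by 0.11 ± 1.14 for Hspa1a. Of 15 cytosolic chaperones 11 lay below 0 (median -0.22, which was -0.37 once WT replicate 1 was left out and -0.11 once TIFAB_KO replicate 1 was), with Hsp90aa1 (-0.35 ± 0.16) and Bag3 (-0.68 ± 0.24) without overlap and Dnajb1 at -0.94 ± 0.34. Between dKO and miR-146a_KO all 15 lay below 0 (median -0.36), and in 10 the 4 dKO libraries lay below the 3 miR-146a_KO libraries, against 2.16% of all genes.

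The folding chaperones of the endoplasmic reticulum differed in sign between both comparisons. In TIFAB_KO against WT 12 of 18 lay above 0 (median 0.14, or 0.0807 once TIFAB_KO replicate 2 was left out), and 4 did not overlap: Sdf2l1 (5.78, 6.08 and 6.49 in WT, 6.87, 6.55 and 7.2 in TIFAB_KO, 0.76 ± 0.23), Hyou1 (0.27 ± 0.15), Xbp1, a factor of the unfolded protein response (0.27 ± 0.19), and Dnajb11 (0.14 ± 0.14). The BiP gene Hspa5 had -0.33 ± 0.25. Between dKO and miR-146a_KO all 18 lay below 0 (median -0.3), with 6 without overlap. For Sdf2l1 the difference between both effects was 1.24 ± 0.31 (limma adjusted p = 0.579).

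Of 30 interferon response genes 23 lay above 0 (median 0.25), and 3 did not overlap, which were Usp18 (0.79 ± 0.39), Irf9 (0.41 ± 0.19) and the immunoproteasome gene Psmb8 (0.35 ± 0.2). WT replicate 1 had the lowest average of this list, at -0.39 against -0.06 to 0.28 in the other 5 libraries. Ifit1, Isg15 and Irf7 overlapped, and without WT replicate 1 the list median was 0.04. Glucocorticoid-induced genes held both signs, with 4 of 9 above 0, and their median of -0.2 became 0.12 once WT replicate 2 was left out, 0.11 once TIFAB_KO replicate 3 was, and -0.59 once TIFAB_KO replicate 1 was. Txnip, which restrains thioredoxin and glucose uptake, had 7.76, 7.83 and 7.66 in WT and 7.4, 6.41 and 6.75 in TIFAB_KO (-0.9 ± 0.22, limma adjusted p = 0.432), and Cebpd, a granulocytic and stress factor, 2.02, 2.15 and 2.54 against 2.94, 2.92 and 3.33 (0.83 ± 0.32).

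Several programmes had medians within 0.1 of 0 over all 6 libraries. They were 0.04 over 28 S-phase genes, -0.02 over 28 genes of G2 and mitosis, 0.03 over 77 cytosolic ribosomal proteins, 0.08 over 18 glycolysis enzymes and -0.06 over 18 orthologs of genes lost in del(5q). The ribosomal protein median turned with single libraries, to -0.17 (74 of 77 below 0) once TIFAB_KO replicate 3 was left out and to 0.15 (61 above 0) once TIFAB_KO replicate 2 was. Over the 6 libraries left out in turn, it ranged from -0.0313 to 0.139 for S-phase genes, -0.105 to 0.0589 for G2 and mitosis, 0.0653 to 0.165 for glycolysis and -0.124 to -0.032 for the del(5q) orthologs. Rps14, the ribosomal protein gene of that region, had 8.41, 8.15 and 7.82 in WT and 7.86, 8.16 and 9.32 in TIFAB_KO, and its fold change of 0.32 ± 0.29 was -0.12 without TIFAB_KO replicate 3. Csnk1a1 and Apc, further genes of the deleted region, had -0.09 ± 0.13 and -0.07 ± 0.2. Cholesterol synthesis genes had a median of -0.2 with 14 of 20 below 0, and -0.295 to -0.121 with 1 library left out. Of 23 stem and early progenitor genes 17 lay below 0 (median -0.11, or -0.203 to -0.0267 with 1 library left out), with Kit and Cd34 at -0.1 ± 0.17 and -0.07 ± 0.18. Of these 23 genes, 2 had all 3 TIFAB_KO libraries below WT and 3 had all above. The lower ones were Dntt, the lymphoid terminal transferase gene, and Hlf, a stem cell factor gene (-0.43 ± 0.26). Dntt had 5, 4.64 and 4.91 against 3.81, 3.46 and 3.17 (-1.37 ± 0.91). The higher ones included Ifitm1 and Prom1 (2.29 ± 0.46).

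Among single genes, those with the smallest p after the called ones were mostly higher in TIFAB_KO. Slc15a2, a peptide transporter gene (chr16:36750177-36784962), had 2.96, 1.93 and 1.6 in WT and 4.54, 4.23 and 3.38 in TIFAB_KO (1.89 ± 0.34, limma adjusted p = 0.108). Nucb2, which encodes a calcium-binding protein, had 4.74, 3.93 and 4.06 against 5.23, 5.71 and 5.54 (1.25 ± 0.25, limma adjusted p = 0.195). Prom1, the CD133 gene of progenitor cells, had 2.92, 2.42 and 1.5 against 4, 5.22 and 4.49 (2.29 ± 0.46, limma adjusted p = 0.195). Dio2, a deiodinase gene that activates thyroid hormone, had 5.23, 5.39 and 5.45 against 6.16, 6.74 and 6.52 (1.11 ± 0.23, limma adjusted p = 0.248). For Slc15a2, Prom1 and Dio2 the miR-146a_KO libraries, which keep Tifab, also lay above all WT libraries. They had 3.12, 3.16 and 3.42 for Slc15a2, 3.83, 3.42 and 3.36 for Prom1, and 6.71, 6.91 and 6.42 for Dio2. For Nucb2 they overlapped WT. Across Slc15a2, Nucb2, Prom1 and Dio2, WT and TIFAB_KO were 0.42 to 1.09 apart at their closest. That distance exceeded the range within WT for Dio2 alone.

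B4galt4, a galactosyltransferase gene, had 4.3, 4.37 and 4.4 in WT and 5.39, 5.08 and 5.31 in TIFAB_KO (0.9 ± 0.21). Mrpl44, a gene of the mitochondrial ribosome, had 4, 4.24 and 4.45 against 4.99, 4.93 and 5.04 (0.76 ± 0.17). Aoah, which encodes an enzyme that inactivates lipopolysaccharide, had 1.23 ± 0.3, Mtus1 1.38 ± 0.32 and Kcnip3 0.84 ± 0.21, each with a limma adjusted p of 0.432. On the lower side, Col5a1, a fibrillar collagen gene, had 4.5, 4.44 and 4.66 against 3.37, 3.31 and 3.69 (-1.08 ± 0.26). Atp1b2, a sodium pump subunit gene, had 7.46, 7.17 and 7.69 against 6.95, 6.57 and 6.52 (-0.76 ± 0.18), and H3f3b, a gene for histone H3.3, 10.07, 10.01 and 10.05 against 9.74, 8.96 and 9.14 (-0.77 ± 0.19). Gem, Coq10b and Spire1 had -1.23 ± 0.33, -0.98 ± 0.27 and -0.7 ± 0.18. The miR-146a_KO libraries also lay above all WT libraries for Mrpl44 and Mtus1, and below them for Atp1b2, H3f3b and Coq10b. For B4galt4, Aoah, Kcnip3, Col5a1, Gem and Spire1 they overlapped WT.

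The same loss was read a second time where miR-146a was absent too. Between dKO and miR-146a_KO 6 of 11813 genes (0.0508%) passed in limma, among them Tifab and H2afy. All dKO libraries lay above all miR-146a_KO libraries for 191 genes (1.62%), and an unadjusted p under 0.05 was found for 234 (1.98%). The medians there were -0.02 for primary granule genes (0.64 in TIFAB_KO against WT), -0.27 for eosinophil genes (1.46), 0.08 for erythroid membrane and transport genes (-0.34), 0.05 for AP-1 and EGR genes (-0.7) and 0.04 for NR4A and KLF genes (-0.86). Other lists were further from 0, with 0.34 for late granule and neutrophil genes (0.7), -0.36 for cytosolic heat shock chaperones (-0.22) and -0.3 for the chaperones of the endoplasmic reticulum (0.14). Of 15 primary granule genes 7 lay above 0 and 8 below, with none without overlap.

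Gene by gene, the difference between both effects passed for 0 of 11813 genes (0%) in limma and for 0 with limma-voom weights, and 500 genes had an unadjusted p under 0.05. Gfi1 had 1.31 ± 0.32 in TIFAB_KO against WT and -0.47 ± 0.3 in dKO against miR-146a_KO, a difference of 1.78 ± 0.44 (limma adjusted p = 0.546). Slc15a2 had 1.89 ± 0.34 and -0.09 ± 0.32, a difference of 1.98 ± 0.47 (limma adjusted p = 0.546). Car1 had -0.74 ± 0.21 and 0.37 ± 0.19, and its miR-146a_KO libraries, at 9.83, 10.2 and 9.85, all lay below the WT libraries. The miR-146a_KO libraries had 3.62, 4.24 and 4.01 for Gfi1, all above WT replicate 3, and 13.48, 13.12 and 13.23 for Mpo, close to WT replicates 1 and 2. On the immediate early lists miR-146a_KO replicate 2 was nearly as low as TIFAB_KO replicates 2 and 3, at -0.71 for the AP-1 and EGR genes, where its group mates had 0.19 and -0.11. All miR-146a_KO libraries, which keep Tifab, lay below all WT libraries for Nr4a1 (5.43, 3.94 and 5.19) and Tnfaip3 (8.25, 7.33 and 8.05). So they did for Egr1, Klf6, Jund, Zfp36, Ier2 and Ier5. For Jun, Fos, Egr2, Rhob, Dusp1, Nfkbia and Cxcl2 they overlapped WT.

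**Figure D5:**
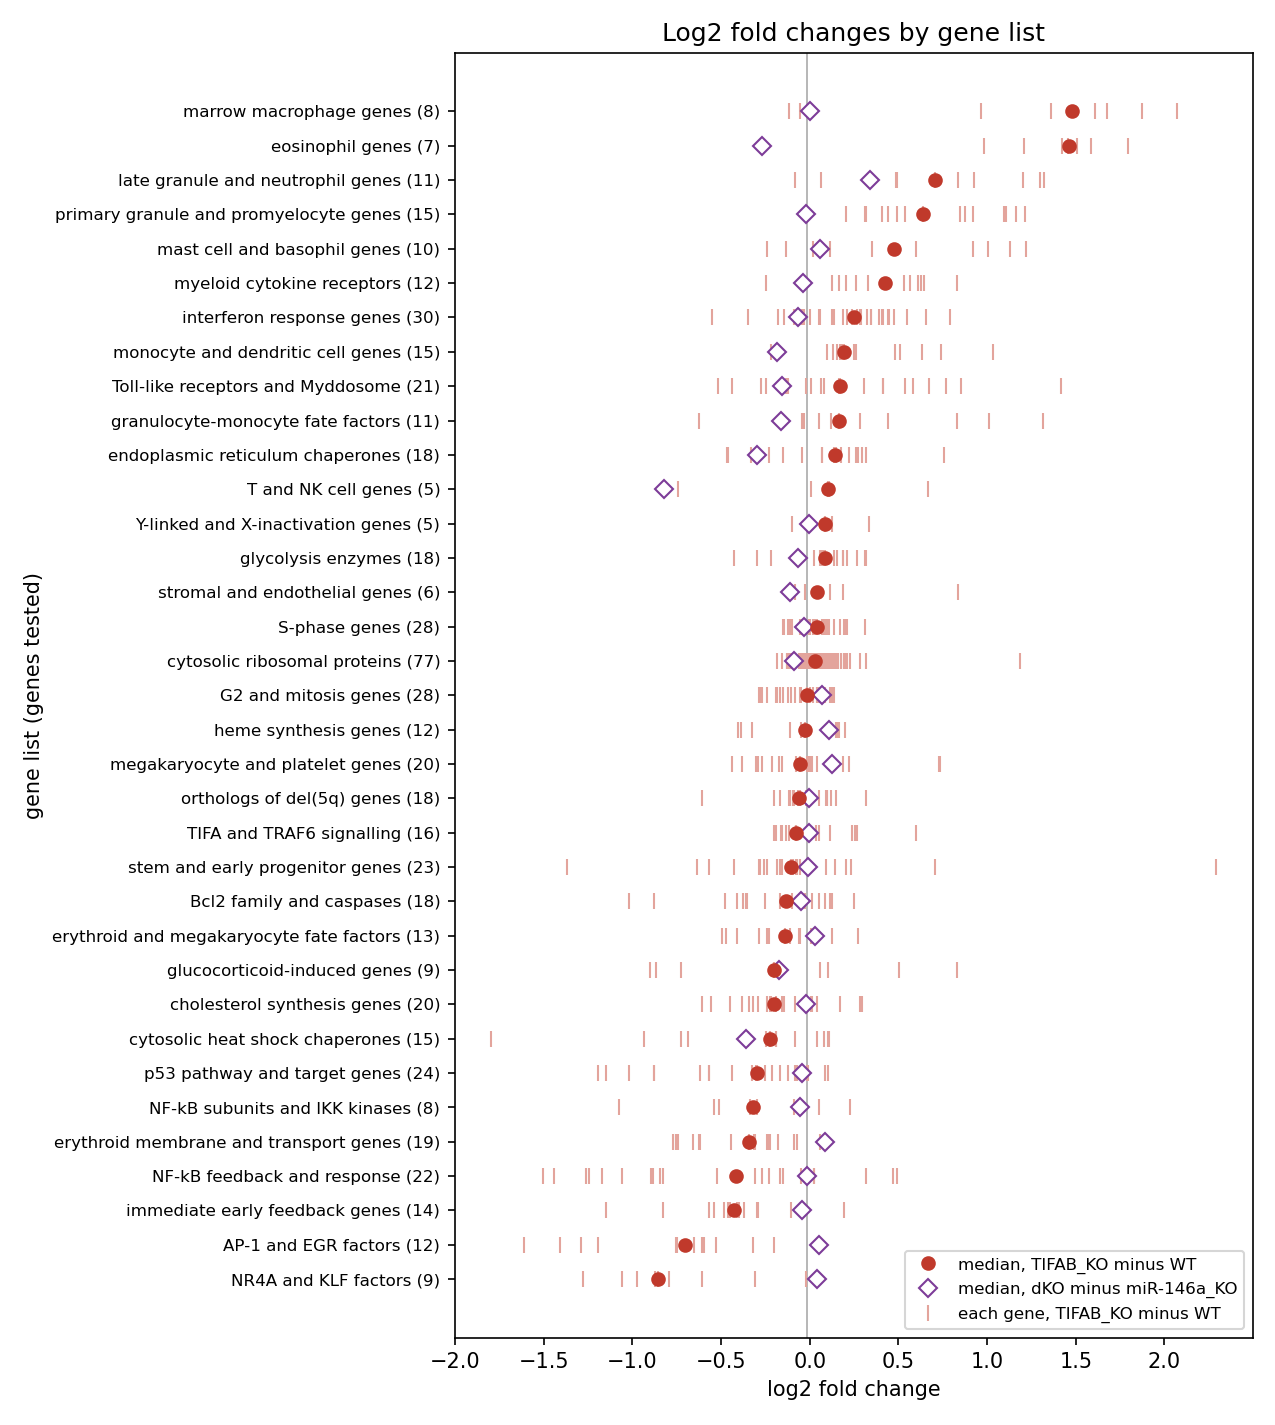
Log2 fold changes for the 35 gene lists with at least 5 genes tested. Ticks are single genes in TIFAB_KO minus WT, filled circles their medians, diamonds the medians in dKO minus miR-146a_KO, and the grey line the median of all genes (-0.01). Filled circles spread from -0.86 to 1.48, and the diamond lies closer to 0 than the filled circle in 26 of the 35 lists. The lists were chosen with earlier results of these data known, so this count is a description and no test. The highest circle, of marrow macrophage genes, rests on 8 genes, 2 of them tested through their TIFAB_KO values alone.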

How the data were processed

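RNA of LK cells was amplified and sequenced on a HiSeq2500, per the labels' protocols. TopHat, featureCounts, limma and mm10 are named, per the submitters' processing notes, which give no version here. The authors deposited log2 CPM values per gene for all 13 libraries, and each column was mapped to its sample by name, with 0 unused columns. The deposited log2 values equal the log2 of reads plus 0.5 per M reads (total plus 1), since 99.9 to 100% of values in each library gave whole reads within 0.01 read. Zero reads thus have a floor, and low genes have understated fold changes. A count of 0 allows up to 3 reads, or 0.235 to 0.358 CPM in the 6 libraries, for counting error only.

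Genes were tested with limma 3.58.1 in R 4.3.3, with a variance trend, 1 mean per group over all 13 libraries and Benjamini-Hochberg adjusted p under 0.05. Contrasts were TIFAB_KO minus WT, dKO minus miR-146a_KO and their difference. The 38 gene lists are described by counts and medians. The comparison, its members and the lists were chosen with earlier results of these data known. Genes were named by rule: the called genes, the 12 per direction with the smallest p among non-overlapping genes averaging 1 log2 CPM or more, the first 3 members of each list and up to 4 non-overlapping ones, and 3 tested neighbours on each side of Tifab. Positions are from GENCODE M21 (GRCm38) for 94.5% of rows, and 8 promoter motifs were searched in RefSeq sequences. Alternatives were other filters, added reads, normalizations, weights, variance models and call rules, the replicate block, and leaving out each library. A fit without TIFAB_KO replicate 3 and dKO replicate 3 was chosen after seeing the data.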

Additional observations from a re-analysis of the deposited data

How the results depend on the processing

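For TIFAB_KO against WT, limma called 0 genes without the filter on low values (946 had an unadjusted p under 0.05), 0 without the variance trend, 5 with library quality weights and 1 when only the groups compared were fitted, against 2 in the reported fit. Leaving out 1 library gave 0 to 41 calls: 41 without TIFAB_KO replicate 1, 4 without WT replicate 1, 0 when the library left out was 2 or 3 of either WT or TIFAB_KO, 1 of dKO, or a miR-146a_KO library, 2 without dKO replicate 2 or 3, and 3 without dKO replicate 4. Leaving out TIFAB_KO replicate 3 and dKO replicate 3 together gave 3. The Tifab log2 fold change stayed at -1.952 without the filter (limma adjusted p = 0.0693) and without the variance trend (limma adjusted p = 0.485), and ranged from -2.059 to -1.802 over single libraries left out. Between dKO and miR-146a_KO 3 genes were called without the variance trend, 3 with the replicate block, and 2 to 5 with 1 library left out. The difference of both contrasts gave 0 to 1 calls with 1 library left out (1 without TIFAB_KO replicate 1) and has no value for the fit of only the groups compared. Tfrc ranged from -0.2679 to 0.00199 (without WT replicate 1), and Rps14 from -0.1159 to 0.6145, with -0.1159 without TIFAB_KO replicate 3, also when dKO replicate 3 was left out too. The cause of these changes was not tested. Of the list medians 877 stayed within the spread of replicates and 32 moved beyond it, and the T and NK cell list had no member left at a mean of 3 log2 CPM. Same-numbered WT and TIFAB_KO libraries had correlations of -0.192, 0.0189 and -0.107, so the numbers do not pair them, and the replicate block called 2 genes in TIFAB_KO against WT.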

Other observations

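Genes with reads in all libraries of 1 group and none in the other were looked for after the values were seen. Reads in the 3 TIFAB_KO libraries (at least 3 each) and none in WT were found for 3 genes: Epcam, an epithelial adhesion gene, had 5, 3 and 8 reads, Mtcl1 had 4, 4 and 4, and Oosp2 had 4, 3 and 5. The reverse held for 4 genes: Lrguk had 7, 10 and 7 reads in WT, Sema4f 3, 4 and 11, Slc25a34 3, 5 and 3, and Zdbf2 4, 5 and 5. Each of the 7 also had reads in some miR-146a_KO or dKO libraries, and no test was run on them.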
